A study of Mus musculus with 16 samples.

Results

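Histone marks were measured at the promoters of 18 mouse genes that code for parts of the cytosolic ribosome, the mitochondrial ribosome and the respiratory chain, out of 3925 genes with chromatin immunoprecipitation sequencing (ChIP-seq) counts. The genes were taken by symbol: autosomal genes of the families whose names begin with Rpl, Rps, Mrpl, Mrps, Nduf, Cox, Uqcr, Atp5, Timm, Tomm or Sdh. All 3925 measured genes carry a mark set by the authors, UP at 1904 and DOWN at 2021. Shares over all promoters given below therefore refer to this marked list. The cytosolic ribosome is represented by 3 genes, of which Rps6 and Rpl24 are described. The mitochondrial ribosome is represented by Mrpl10, Mrpl23, Mrpl38, Mrpl45, Mrpl50 and Mrps6. Complex I has 6 genes, the subunits Ndufa4 and Ndufs5 and the assembly factors Ndufaf2, Ndufaf4, Ndufaf5 and Ndufaf8. Uqcrh (complex III), Atp5h (ATP synthase) and Tomm70a (protein import) stand alone, and the Cox, Timm and Sdh families have no gene among those measured and named. The 3 pseudogenes of these names, such as Rpl19-ps11 and Rps6-ps4, were left out, as were the S6 kinase genes Rps6ka2, Rps6ka4 and Rps6ka5, which share letters but not the family.

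The cells were endosteal mesenchymal stromal cells (MSCs), stromal cells of the inner bone surface, from C57BL/6J mice. WT mice carried the floxed Bap1 allele with no cre named (Bap1fl/fl). In cKO mice Bap1 was deleted with Prx1-cre, a recombinase driven by a promoter active in limb mesenchyme. Each genotype had 2 libraries for each of H2AK119ub1, H3K27me3, H3K4me3 and H3K27ac, 16 in all. Neither the age nor the number of the mice is stated in the labels, and no label says that paired libraries of a group stem from different mice. The p-values therefore reflect library-to-library spread, which could be purely technical. The deletion was not checked, as counts of Bap1 itself were not analysed here. Marks follow the titles, since for H3K4me3 and H3K27ac the antibody entries are exchanged relative to the titles. In counts per 1000000 (CPM) of WT H3K4me3, the 10 stromal markers measured ran from 17.3 (Thy1) and 23.0 (Ly6a) to 619 (Vim), with Cxcl12 at 591 and Col1a1 at 344. The blood marker Lyz2 and the muscle marker Des held 11.4 and 17.9, as little as Thy1 and Ly6a.

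BAP1 is the enzyme that removes ubiquitin from a lysine near the end of histone H2A. That mark, H2AK119ub1, is placed by Polycomb repressive complexes, as is H3K27me3, and both are typical of silent or weakly used genes, whereas H3K4me3 and H3K27ac sit on the nucleosomes beside the start of active genes. Genes for ribosomal proteins and for the respiratory chain are used in nearly every cell type and have promoters rich in CpG. Mitochondrial ribosomes translate the few respiratory chain subunits coded by mitochondrial DNA, and complex I, complex III and the ATP synthase are built from those together with nuclear-coded subunits such as the ones measured here. Factors of the ETS family and NRF1 are known to bind at many promoters of this kind.

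RefSeq promoter sequences (GRCm38.p6, 300 bases around the start) were matched by symbol for 16 of the 18 genes. The ETS core CCGGAAG, searched on both strands, occurred in 5 of the 16 (31.3%), namely Atp5h, Ndufaf8, Uqcrh, Rps6 and Tomm70a, against 8.86% of all 32851 promoters in the table and 11.8% of the 2594 measured genes with a sequence. The NRF1 letters GCATGCG, also on both strands, occurred in Ndufaf4, Ndufaf5 and Mrpl10 (18.8%, against 3.58% and 4.43%). The CCAAT letters of NF-Y were in 6 (37.5%, against 37.4% of all), the letters GGGCGG of Sp1 in 6 (against 35.7% of all and 64.9% of measured genes), AAGATGG of YY1 in 1 (6.25%, against 6.34%) and ACGTCA of the cyclic AMP response element in 1 (against 7.51%). TATAAA and CACGTG had no match in these windows, and 13.6% and 7.15% of all promoters hold them. The median GC content of the 16 was 58.5% and their median ratio of observed to expected CpG was 0.90, against 52.7% and 0.38 over all promoters and 61.7% and 0.72 over the measured genes. The 140 bases before the start are printed below, 5′ to 3′ on the gene's strand, with ETS or NRF1 letters in capitals (CTTCCGG is the ETS core on the other strand, and the NRF1 letters overlap on both strands), for the 5 genes with the ETS core and 2 with the NRF1 letters, and for Mrpl23 and Rpl24, the genes of greatest H3K4me3 gain and loss, whose windows hold neither. The RefSeq start of Mrpl23 lies inside the gene relative to the start used for its counts (offset -346 bases).
Rps6, chr4:86857368-86857507, minus strand: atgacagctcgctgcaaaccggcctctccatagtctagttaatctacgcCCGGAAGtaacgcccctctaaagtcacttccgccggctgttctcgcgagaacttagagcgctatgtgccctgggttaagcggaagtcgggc
Uqcrh, chr4:116075071-116075210, minus strand: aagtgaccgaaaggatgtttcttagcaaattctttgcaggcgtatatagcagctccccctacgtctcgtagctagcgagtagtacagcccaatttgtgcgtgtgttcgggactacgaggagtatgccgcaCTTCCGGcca
Atp5h, chr11:115419920-115420059, minus strand: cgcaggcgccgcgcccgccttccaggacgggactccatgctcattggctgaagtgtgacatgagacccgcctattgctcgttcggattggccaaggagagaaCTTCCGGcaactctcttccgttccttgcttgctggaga
Ndufaf8, chr11:120098794-120098933, plus strand: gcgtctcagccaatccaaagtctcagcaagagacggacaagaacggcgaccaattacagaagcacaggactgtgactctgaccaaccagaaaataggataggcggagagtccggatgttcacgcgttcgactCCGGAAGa
Tomm70a, chr16:57121574-57121713, plus strand: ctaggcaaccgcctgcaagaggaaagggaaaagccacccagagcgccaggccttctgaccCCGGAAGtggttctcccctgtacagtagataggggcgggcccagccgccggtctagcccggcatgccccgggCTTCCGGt
Ndufaf4, chr4:24897943-24898082, plus strand: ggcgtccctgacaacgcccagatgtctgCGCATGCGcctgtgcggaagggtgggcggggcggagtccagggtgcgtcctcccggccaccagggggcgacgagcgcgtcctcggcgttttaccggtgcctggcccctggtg
Mrpl10, chr11:97041442-97041581, plus strand: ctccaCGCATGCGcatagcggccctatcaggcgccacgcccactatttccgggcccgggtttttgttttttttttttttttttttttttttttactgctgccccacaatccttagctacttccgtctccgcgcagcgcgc
Mrpl23, chr7:142532892-142533031, plus strand: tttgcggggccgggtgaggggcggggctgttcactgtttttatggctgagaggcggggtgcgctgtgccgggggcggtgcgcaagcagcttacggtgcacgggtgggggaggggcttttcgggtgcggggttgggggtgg
Rpl24, chr16:55966135-55966274, plus strand: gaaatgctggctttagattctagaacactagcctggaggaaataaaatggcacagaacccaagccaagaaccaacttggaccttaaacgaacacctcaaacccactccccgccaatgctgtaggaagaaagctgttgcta

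These promoters carried much H3K4me3 and little of the Polycomb marks in WT cells. Promoter values are counts summed over the 4 kb centred on the gene start, which hold upstream sequence and the first part of the gene, given as CPM of the scaled autosomal counts of the library. The median WT level of the 18 genes was 289 CPM in H3K4me3 and 172 in H3K27ac, against 166 and 124 over all promoters tested, and 15 and 14 of the 18 lay above those medians. In H2AK119ub1 the median was 77.0 CPM against 108.1, and in H3K27me3 64.9 against 83.8, with 3 of the 18 above the median of all promoters in each. Ndufaf5 was highest in H3K4me3 (505 and 469.8 CPM in the WT libraries), followed by Uqcrh (437 and 458), Atp5h (402 and 403) and Ndufa4 (429 and 371). The lower end was held by Ndufs5 (157 and 155), Mrpl45 (157 and 125) and Mrpl23 (108.3 and 111). The libraries of Ndufa4 span those of Atp5h, and the libraries of Mrpl45 span those of Ndufs5, so neither order is resolved, while both libraries of Mrpl23 lay below every library of the other genes. In H3K27ac the order began with Uqcrh (401.5 and 421.5 CPM) and Ndufa4 (342 and 400.0) and ended with Ndufs5 (101.2 and 95.1) and Ndufaf4 (100.2 and 88.3), which overlap.

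**Figure D1:**
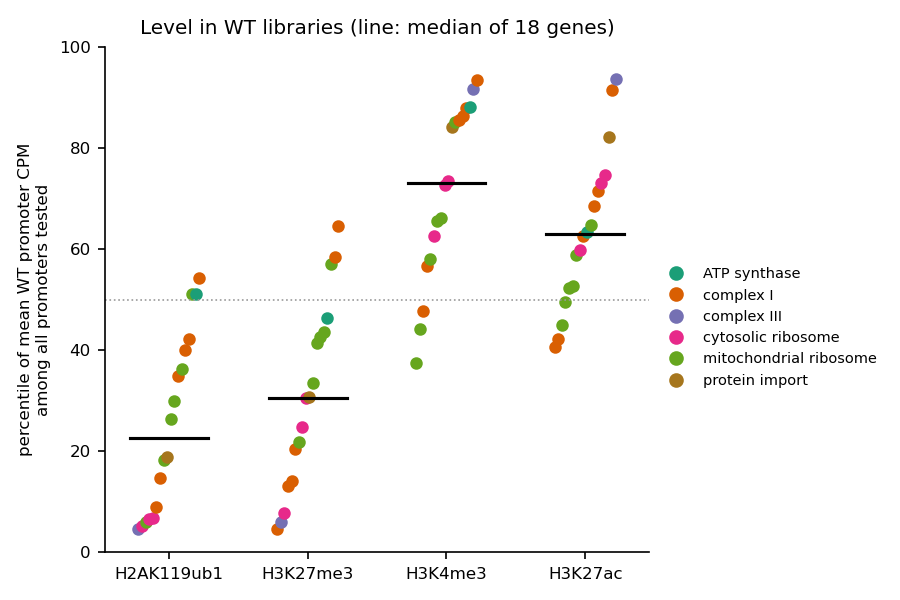
Percentile of each gene's mean WT promoter CPM among all promoters tested in the same mark (vertical axis, 0 to 100), with 1 point per gene coloured by family and a line at the median of the 18 genes. The medians lie at 73.0 in H3K4me3 and 62.9 in H3K27ac, and at 22.6 in H2AK119ub1 and 30.6 in H3K27me3.

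In cKO cells most of these promoters gained both active marks, and those on chromosome 16 lost them. H3K4me3 rose at 12 of the 18 and fell at 5 (edgeR quasi-likelihood test, Benjamini-Hochberg adjusted p at or under 0.05). Over all 3905 promoters tested, 40.5% rose and 31.8% fell, beside 66.7% and 27.8% of the 18. The share that rose was thus above the background, and the share that fell was near it. H3K27ac rose at the same 12 and fell at 3, against 30.9% and 29.1% of 3892 promoters. The median log2 change of the 18 genes was 0.69 in H3K4me3 and 0.99 in H3K27ac, against 0.04 and -0.00 over all promoters. In each active mark both cKO libraries lay above both WT libraries at 12 genes, a pattern shown by 44.9% of all promoters in H3K4me3 and 40.1% in H3K27ac. Both lay below at 5 genes in H3K4me3 (40.5% of all) and 4 in H3K27ac (39.6%). In a bulk sample, a change per cell and a change in the share of cells that carry the mark cannot be told apart. The 12 genes that rose are those the authors marked UP in the deposited table. No source used here says how that mark was set, so it is no independent evidence of direction, and of all 1892 tested promoters marked UP 74.1% rose in H3K4me3 and 60.5% of 1884 in H3K27ac. Scaled to the outer 1 kb flanks of the 10 kb windows, the median H3K4me3 change of all promoters moved up by 0.39 and the higher share of all calls went from 56.0% to 80.6%. On that scale the 12 genes kept their gain, Ndufaf2 (0.42) was also called higher, Ndufa4 (0.20) and Ndufaf5 (0.13) turned from lower to higher without passing, and Tomm70a (-0.28) no longer passed.

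**Figure D2:**
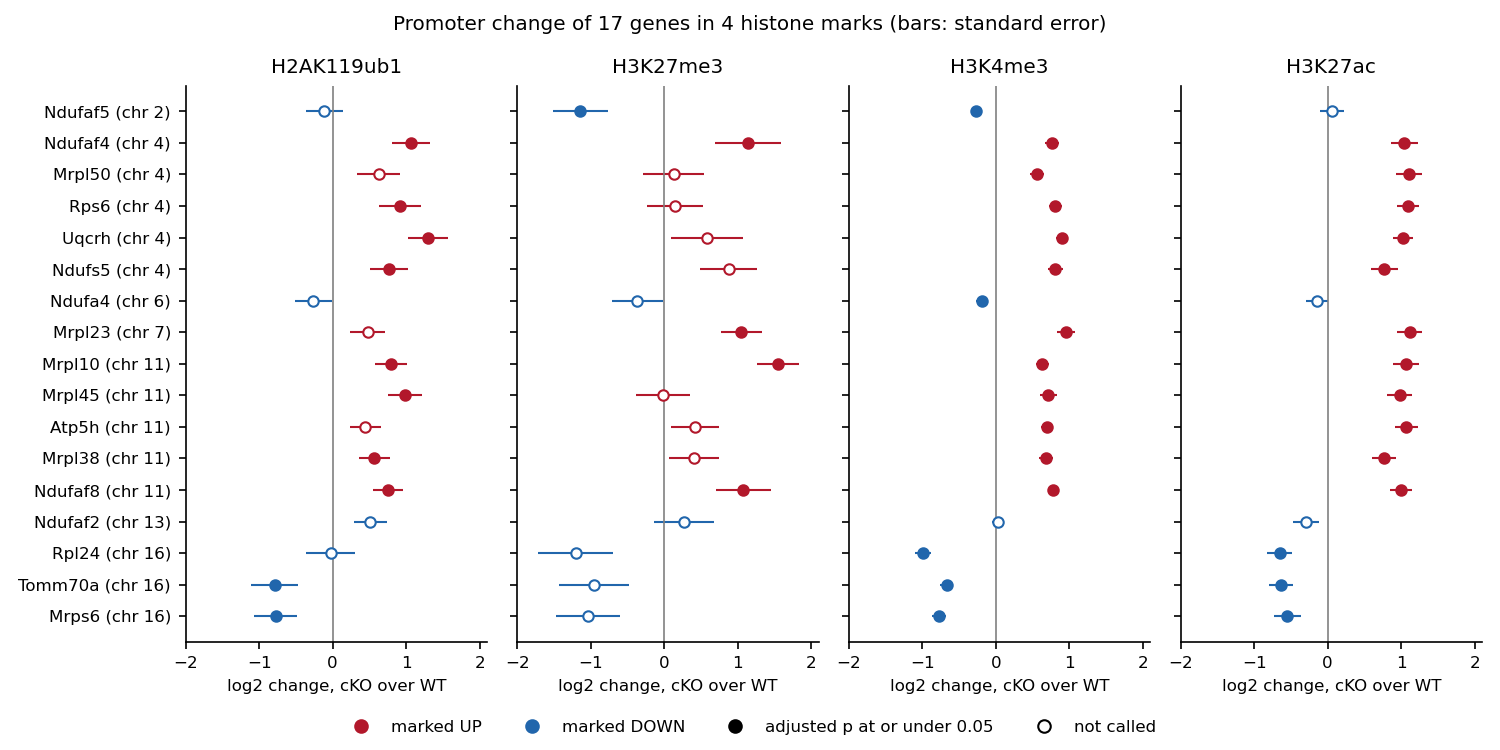
Log2 change of promoter counts, cKO over WT (horizontal axis), for each of 17 genes and each mark, with standard error bars, filled points for adjusted p at or under 0.05 and colour for the authors' mark UP or DOWN; genes are ordered by chromosome and position. In H3K4me3 the genes marked UP lie between 0.56 and 0.96 and the 3 genes of chromosome 16 between -0.99 and -0.67, while the small losses at Ndufa4 and Ndufaf5 turn to 0.20 and 0.13 when scaled to the outer flanks.

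The cytosolic ribosome genes split by position. Rps6, whose protein is the S6 kinase substrate of the small subunit (ENSMUSG00000028495, chromosome 4, 86855413 to 86859412), held 276 and 296 H3K4me3 CPM in WT and 528 and 475 in cKO, a log2 change of 0.81 ± 0.08 (SE, adjusted p = 1.06e-21). Its H3K27ac values were 211 and 252 in WT and 511 and 475 in cKO (log2 1.09 ± 0.15, adjusted p = 1.15e-07). Neither mark had overlapping genotypes. Rpl24, a protein of the large subunit (ENSMUSG00000098274, chromosome 16, 55964275 to 55968274), went the other way. H3K4me3 there was 313 and 269.8 CPM in WT and 155 and 138 in cKO (-0.99 ± 0.10, adjusted p = 7.24e-21), the greatest loss of the 18. Its H3K27ac fell from 246 and 201 to 135 and 148 (-0.65 ± 0.17, adjusted p = 0.00129), a call that was lost without WT H3K27ac replicate 1 (-0.47). Reads of near-identical ribosomal pseudogenes could be split or lost in the authors' alignment, which leaves levels and changes at these genes less certain.

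Of the 6 mitochondrial ribosome genes 5 gained both active marks and 1 lost both. Mrpl23, a large subunit protein (ENSMUSG00000037772, chromosome 7, 142530686 to 142534685), had the lowest H3K4me3 in WT (108.3 and 111 CPM) and 204 and 222 CPM in cKO. Its log2 change of 0.96 ± 0.12 (adjusted p = 3.39e-14) was the greatest H3K4me3 gain of the 18, and its H3K27ac change of 1.12 ± 0.17, from 124 and 122 CPM to 245 and 287, the greatest of that mark. Mrpl10 and Mrpl45, both large subunit proteins on chromosome 11, lie near each other and both rose. Mrpl10 (97039560 to 97043559) rose from 267 and 224.5 H3K4me3 CPM to 407 and 355 (0.63 ± 0.09) and Mrpl45 (97313716 to 97317715) from 157 and 125 to 228 and 233 (0.71 ± 0.11). Mrpl38, also on chromosome 11, rose by 0.69 ± 0.10 in H3K4me3 and 0.77 ± 0.16 in H3K27ac. Mrpl50 on chromosome 4, named here although outside the rule for named genes, rose by 0.56 ± 0.09 in H3K4me3, the least of the 12, and by 1.11 ± 0.17 in H3K27ac. Its start lies 83 bases from that of Zfp189 on the opposite strand, so the window also holds the promoter of that gene. Mrps6, a small subunit protein (ENSMUSG00000039680, chromosome 16, 92056270 to 92060269), fell from 363 and 383.5 H3K4me3 CPM to 196 and 239.7 (-0.77 ± 0.09, adjusted p = 2.37e-16). In H3K27ac it fell from 183 and 180.3 to 104 and 144.5 (-0.55 ± 0.18, adjusted p = 0.0106), a call lost without either WT library and without cKO replicate 1 (-0.50, -0.52 and -0.33). Slc5a3 starts 52 bases away on the same strand, and the signal of both starts cannot be told apart.

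Of the 6 complex I genes 3 rose in H3K4me3, 2 fell and 1 was not called. Ndufs5, an accessory subunit of complex I (chromosome 4, 123716203 to 123720202), rose from 157 and 155 H3K4me3 CPM to 297 and 249.1 (0.81 ± 0.10, adjusted p = 5.02e-14), with H3K27ac going from 101.2 and 95.1 to 172 and 163 (0.77 ± 0.19, adjusted p = 0.000553). The assembly factor genes Ndufaf4 (chromosome 4, 24896083 to 24900082) and Ndufaf8 (chromosome 11, 120096928 to 120100927) were called higher in all 4 marks. The H3K27me3 calls did not hold without some of its libraries. In H2AK119ub1 neither call held with the regional offset described below (0.66 and 0.36). Without cKO H2AK119ub1 replicate 1 the changes in that mark were 0.68 and 0.66. At Ndufaf8 H3K4me3 was 400.3 and 367.5 CPM in WT and 683.5 and 635 in cKO (0.78 ± 0.07), and H3K27ac 197 and 232 and then 427 and 434 (1.00 ± 0.15). At Ndufaf4 the changes were 0.76 ± 0.10 and 1.04 ± 0.18. The other 3 genes of complex I, all marked DOWN, had small differences in the active marks. Ndufa4, first described as a complex I subunit and later placed with cytochrome c oxidase, went from 429 and 371 to 358 and 342 H3K4me3 CPM, a loss of 0.19 on the log2 scale (SE 0.08, adjusted p = 0.0312) that no longer passed without WT H3K4me3 replicate 1 (-0.09) or without cKO replicate 2 (-0.16) and that turned to 0.20 when scaled to the outer flanks. Ndufaf5, an assembly factor with methyltransferase homology, went from 505 and 469.8 to 429.9 and 380.4 (-0.27 ± 0.08, adjusted p = 0.000999), a loss that did not pass without cKO replicate 2 (-0.18) and turned to 0.13 when scaled to the outer flanks. Ndufaf2 was the 1 gene with no call in any mark, and is named here although outside the rule. It held 359 and 394 H3K4me3 CPM in WT and 358 and 409 in cKO (0.03 ± 0.08), and its H3K27ac libraries did not overlap (172 and 168 against 136 and 142) without the change of -0.29 ± 0.17 passing the test.

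Complex III and the ATP synthase were each represented by 1 gene. The windows of both gained active marks, whereas that of the import receptor lost them. Uqcrh, the hinge protein of complex III (ENSMUSG00000063882, chromosome 4, 116073072 to 116077071), had the highest H3K4me3 and H3K27ac of the 18 in cKO. It held 437 and 458 H3K4me3 CPM in WT and 873 and 791 in cKO (0.89 ± 0.07, adjusted p = 2.53e-35), and 401.5 and 421.5 H3K27ac CPM and then 867 and 809.9 (1.03 ± 0.13, adjusted p = 4.07e-08). Its start lies 198 bases from that of Lrrc41 on the opposite strand, also a measured gene. Only 34.3% of its H3K4me3 promoter counts in WT and 29.0% in cKO lay downstream, away from Lrrc41. In H3K27ac these shares were 24.85% and 15.6%. Most counts thus lay on the side of Lrrc41, the more so in cKO, and the gain cannot be assigned to Uqcrh alone. Atp5h, subunit d of the ATP synthase (ENSMUSG00000034566, chromosome 11, 115417963 to 115421962), shares its window with Kctd2. H3K4me3 there went from 402 and 403 CPM to 658 and 645 (0.69 ± 0.07) and H3K27ac from 181 and 168 to 389 and 344 (1.07 ± 0.16), with no overlap in either mark. Tomm70a, the receptor on the outer mitochondrial membrane that takes up carrier proteins (ENSMUSG00000022752, chromosome 16, 57119703 to 57123702), fell from 388 and 345 H3K4me3 CPM to 225 and 234 (-0.67 ± 0.09, adjusted p = 8.74e-13). Its H3K27ac went from 262 and 293 to 191 and 166 (-0.63 ± 0.16, adjusted p = 0.000947), a call lost without WT H3K27ac replicate 2 (-0.52). Mrps6, Rpl24 and Tomm70a, the 3 genes with a joint loss, are the 3 on chromosome 16.

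**Figure D3:**
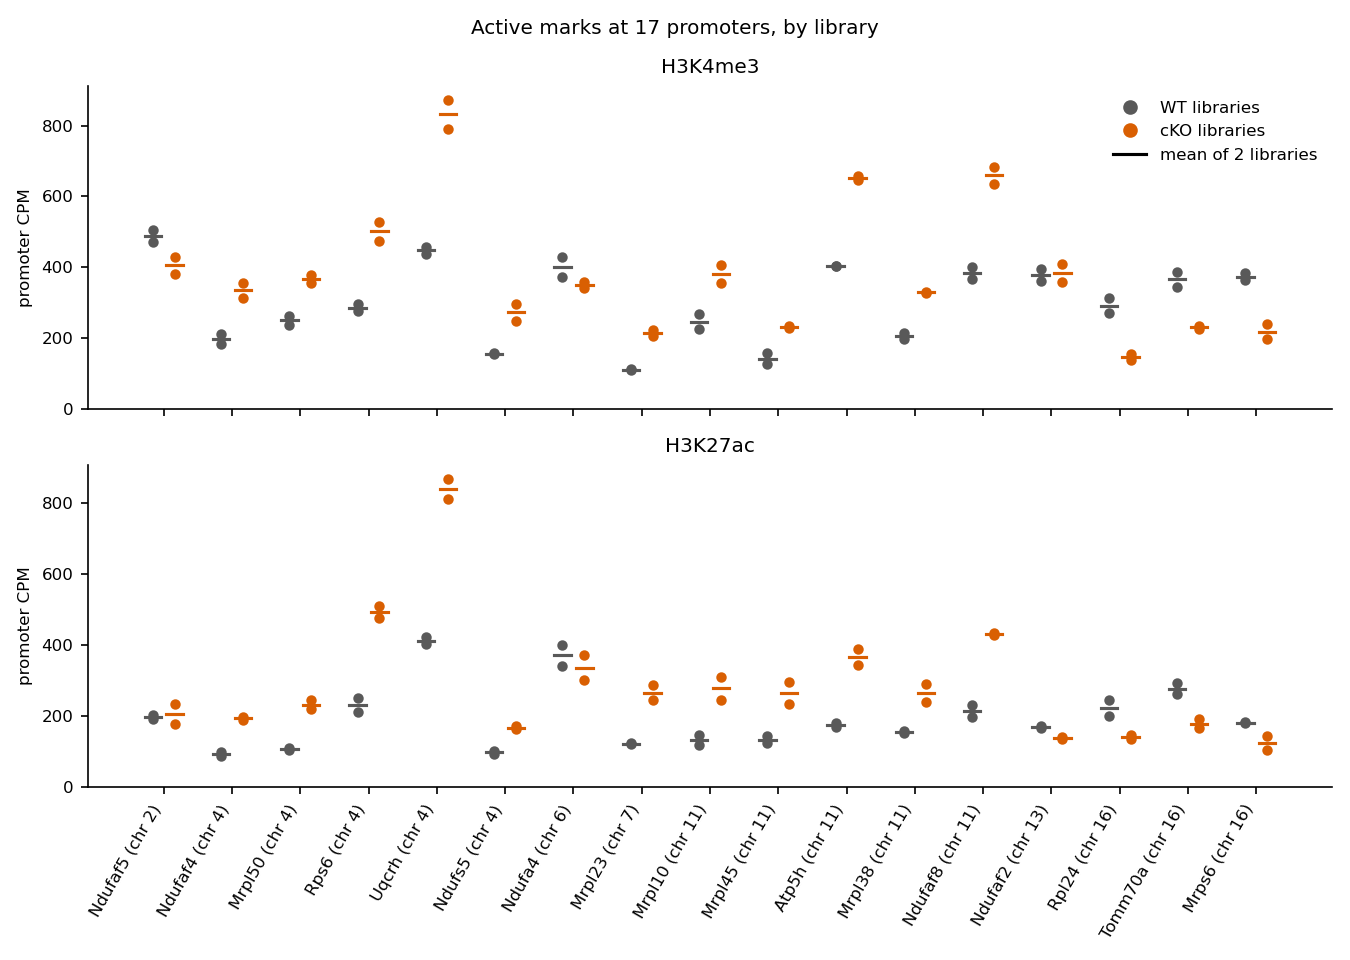
Promoter CPM of H3K4me3 (upper panel) and H3K27ac (lower panel) in each library at 17 genes, with grey points for the 2 WT and orange points for the 2 cKO libraries of each gene and bars at their means; genes are ordered by chromosome and position. At the genes of chromosomes 4, 7 and 11 both cKO points lie above both WT points, and at Rpl24, Tomm70a and Mrps6 below them.

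No gene of the 18 was called higher in 1 mark and lower in another. H2AK119ub1, the mark BAP1 removes, rose at 8 of the 18 and fell at 2, against 16.7% and 16.4% of 3889 promoters, with a median log2 change of 0.54 against 0.02 over all. The 8 were Uqcrh (42.3 and 51.7 CPM in WT, 116.5 and 115 in cKO, 1.30 ± 0.28), Ndufaf4 (1.06 ± 0.26), Mrpl45 (0.99 ± 0.23), Rps6 (0.92 ± 0.29), Mrpl10 (0.80 ± 0.22), Ndufs5 (0.77 ± 0.26), Ndufaf8 (0.75 ± 0.21) and Mrpl38 (0.57 ± 0.21). All 8 also rose in H3K4me3 and H3K27ac. The 2 that fell were Tomm70a (69.8 and 73.4 CPM, then 47.8 and 35.4, -0.79 ± 0.32) and Mrps6 (94.8 and 78.8, then 54.2 and 47.3, -0.78 ± 0.29), which fell in the active marks as well. Of the 18 genes 13 had both cKO libraries above both WT libraries, against 34.4% of all promoters, and 3 had both below, against 32.5%. Among all promoters marked UP 24.3% rose in this mark, and among the 12 genes so marked 8 did. The loss at Tomm70a did not pass without any 1 of the 4 libraries (-1.02 to -0.58), nor that at Mrps6 without WT replicate 1 (-0.64). All 10 calls also rest on 1 library: without cKO H2AK119ub1 replicate 1 edgeR called none of the 18 (5 higher and 2 lower at an unadjusted p under 0.05) and 4 higher and 19 lower over all promoters, and without cKO replicate 2 it called 2 higher, while the median of the 18 was 0.54 in both cases.

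H3K27me3 was low at these promoters, at 27 to 364 deposited counts each, and passed at few. It rose at 4 and fell at 1, against 12.4% and 15.6% of 3883 promoters, with a median log2 change of 0.34 against 0.03 over all. Both cKO libraries lay above both WT libraries at 7 genes (30.9% of all promoters) and below at 5 (31.4%). Mrpl10 gained most, from 56.0 and 79.3 CPM to 221 and 174 (1.54 ± 0.29, adjusted p = 1.5e-06), with both cKO libraries at more than any WT library of the 18 genes. That call held in each alternative that was run. Mrpl23 rose from 88.8 and 95.6 to 180.2 and 202 (1.05 ± 0.28, adjusted p = 0.00125). Ndufaf4 (1.14 ± 0.45) and Ndufaf8 (1.08 ± 0.37) also rose, but neither passed under DESeq2 or without WT replicate 1 (0.80 and 1.19) or cKO replicate 1 (0.96 and 0.51). Ndufaf4 did not pass without cKO replicate 2 (1.34) either, nor Ndufaf8 without WT replicate 2 (0.97). Of all promoters marked UP 8.35% rose and 24.2% fell in H3K27me3, and of the 12 genes so marked 4 rose. These 12 lie on chromosomes 4, 7 and 11, where 21.7%, 18.2% and 24.3% of all promoters rose in this mark. There 7.45%, 4.94% and 7.99% fell. The 1 gene that fell was Ndufaf5, from 87.9 and 117 CPM to 56.4 and 35.9 (-1.14 ± 0.37, adjusted p = 0.0112), a call lost without WT H3K27me3 replicate 2 (-0.92) or without cKO replicate 2 (-0.84). The 3 genes of chromosome 16 changed by -1.20 ± 0.51 (Rpl24), -1.04 ± 0.44 (Mrps6) and -0.96 ± 0.48 (Tomm70a) without passing. Counting all marks, 3 genes were called in all 4 (Ndufaf4, Ndufaf8 and Mrpl10), 8 in 3, 5 in 2, 1 in 1 and Ndufaf2 in 0. Across the 18 genes the log2 changes of H3K4me3 and H3K27ac correlated at r = 0.96 (Spearman rho 0.71), those of H2AK119ub1 and H3K4me3 at 0.86 (0.69) and those of H3K27me3 and H3K4me3 at 0.86 (0.73). These are descriptions over 18 genes that share chromosomes and libraries.

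The direction of change went with the chromosome. The 12 genes that gained active marks lie on chromosomes 4 (6 genes), 11 (5) and 7 (1). The other 6 lie on chromosomes 16 (3), 2, 6 and 13. Of all genes measured, 75.2% on chromosome 4, 76.8% on 7 and 70.0% on 11 carry the mark UP, against 33.6% on 16 and 48.5% in all. The median H3K4me3 change of all promoters tested was 0.77 on chromosome 4 (322 promoters, 73.9% called higher), and the 6 genes there lay between 0.56 and 0.89. On chromosome 11 it was 0.67 (339 promoters, 66.7% higher) and the 5 genes lay between 0.63 and 0.78, and on chromosome 16 it was -0.54 (131 promoters, 58.8% lower) against -0.99 to -0.67 at the 3 genes. H2AK119ub1 also rose at 55.6% of promoters on chromosome 4 and 46.2% on chromosome 11. Several of the genes are near neighbours (Rpl24 and Tomm70a, Mrpl10 and Mrpl45, Atp5h and Mrpl38), so they are not independent in this respect.

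The change at a promoter was therefore also taken relative to its neighbourhood, as the median log2 change, in Polycomb-mark libraries, of the outer 1 kb flanks of the 20 nearest genes. For the active marks this regional change lay between 0.12 and 0.64 at the 12 genes that rose, at -0.97 (Rpl24), -0.98 (Tomm70a) and -0.77 (Mrps6) on chromosome 16, and between -0.21 and 0.05 at Ndufa4, Ndufaf5 and Ndufaf2. Across the 18 genes it correlated with the promoter's own change at r = 0.92 in both H3K4me3 and H3K27ac (rho 0.56 and 0.70), 0.85 in H2AK119ub1 (0.81) and 0.81 in H3K27me3 (0.61). Over the autosomal promoters tested the same r was 0.36, 0.44, 0.62 and 0.41. Input libraries were not analysed here, so a change of a mark and a change in the amount of DNA recovered from a region cannot be told apart.

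**Figure D4:**
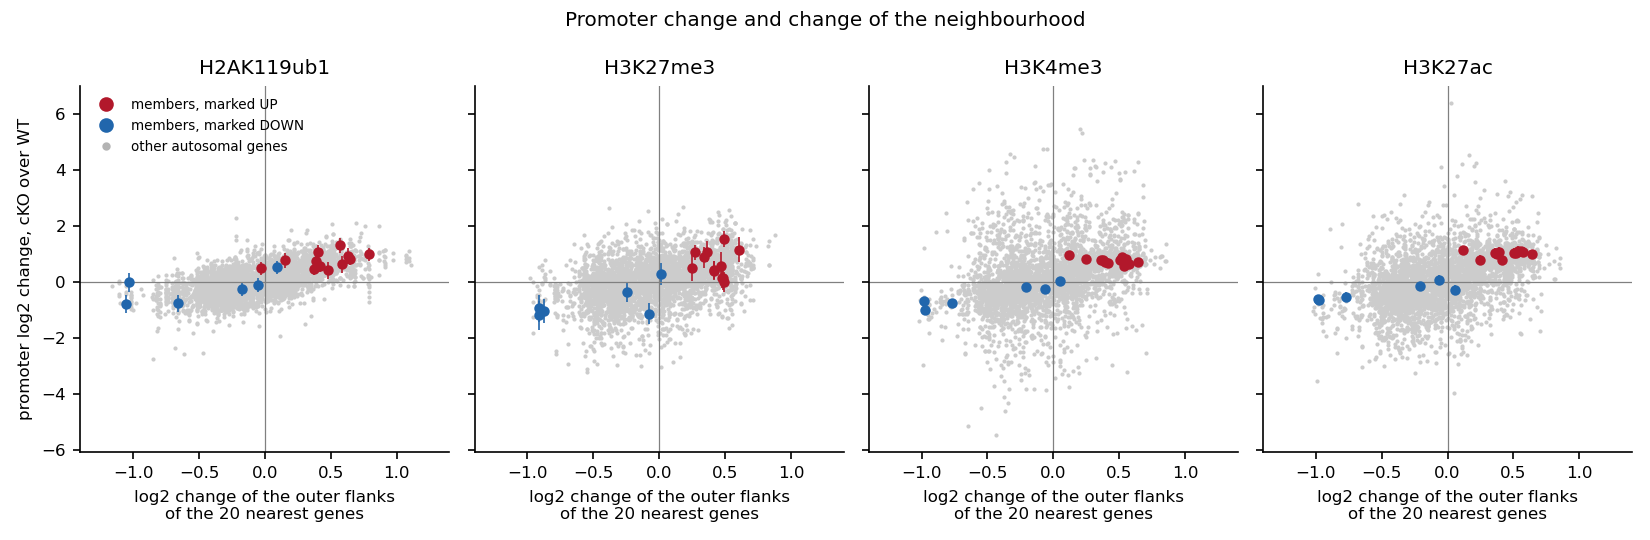
Promoter log2 change, cKO over WT, with standard error bars (vertical axis) against the median log2 change of the outer flanks of the 20 nearest genes (horizontal axis), measured in H3K27me3 for the H2AK119ub1 panel, in H2AK119ub1 for the H3K27me3 panel and as the mean of both for the active marks. Grey points are the other autosomal promoters; the 12 genes marked UP lie to the right and upper side, except Mrpl23 in H2AK119ub1 (-0.03 on the horizontal axis) and Mrpl45 in H3K27me3 (-0.02 on the vertical axis), and the 3 genes of chromosome 16 at the left.

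With the regional change as an offset in the fit, part of the active-mark gain remained and the losses on chromosome 16 did not. H3K4me3 was then higher at 10 of the 18 and lower at 1, against 42.8% and 20.1% of all promoters, and the higher share of all calls was 68.0%. The median of the 18 was 0.26 against 0.16 over all promoters. Mrpl23 kept most of its gain (0.84 ± 0.12, adjusted p = 4.79e-11), followed by Ndufs5 (0.56 ± 0.10) and, among others, Ndufaf8 (0.40 ± 0.07). Mrpl10 (0.06), Mrpl45 (0.07) and Mrpl50 (0.02) no longer passed. Rpl24 (-0.02 ± 0.10) and Mrps6 (-0.00 ± 0.09) no longer passed, and Tomm70a turned to a gain of 0.31 ± 0.09 (adjusted p = 0.00134). The 1 gene still lower was Ndufaf5 (-0.20 ± 0.08, adjusted p = 0.0168).

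H3K27ac kept more of its gain than H3K4me3 on this scale, whose offset comes from Polycomb-mark flanks. At the 12 genes marked UP the neighbours' outer flanks rose by a median of 0.66 in H3K27ac itself and 0.18 in H3K4me3. An offset from those flanks was not fitted, so the order of the 2 marks holds for this scale alone. H3K27ac was higher at 10 of the 18, against 31.1% of all promoters, with a median of 0.50 against 0.14 over all. Mrpl23 (1.00 ± 0.17) led, Atp5h reached 0.68 ± 0.16, and Mrpl38 (0.35) and Mrpl45 (0.34) no longer passed. At Rpl24, Mrps6 and Tomm70a the values turned to 0.32, 0.22 and 0.35, none past the threshold, so that edgeR called none of the 18 lower (0 at an unadjusted p under 0.05), against 20.4% of all promoters. In H2AK119ub1 the 10 calls ended and 1 gene passed, Rpl24, whose level held at 44.8 and 59.1 CPM in WT and 51.2 and 50.8 in cKO while its neighbourhood fell by 1.03 on the log2 scale (1.00 ± 0.33 relative to it, adjusted p = 0.0242). The background was 10.6% higher and 4.71% lower, and no gene of the 18 was lower by edgeR (0 at an unadjusted p under 0.05). In H3K27me3 the gains of Mrpl10 (1.05 ± 0.29, adjusted p = 0.00214) and Mrpl23 (0.78 ± 0.28, adjusted p = 0.0276) and the loss of Ndufaf5 (-1.06 ± 0.37, adjusted p = 0.0237) remained, against 11% higher and 10.7% lower.

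Across the window the active marks formed the shape known for active promoters, with a dip at the start and a main peak just inside the gene. Averaged over the 12 genes marked UP, the highest 50 bp bin of H3K4me3 lay 475 and 375 bp inside the gene in the WT libraries, at 9.48 and 9.52 CPM per bin, and 275 bp inside in both cKO libraries at 17.9 and 17.2. H3K27ac peaked at 5.41 and 6.64 CPM per bin in WT and 14.5 and 13.1 in cKO. The flanks of these windows rose too in H3K27ac, from 0.695 and 0.677 CPM per bin to 1.46 and 1.30, and in H2AK119ub1, from 0.891 and 0.877 to 1.34 and 1.28, whereas those of H3K4me3 stayed low (0.267 and 0.243, then 0.283 and 0.302). At the 6 genes marked DOWN the H3K4me3 peak fell from 12.2 and 13.5 CPM per bin in WT to 10.8 and 11.2 in cKO. The flanks fell from 0.285 and 0.276 to 0.129 and 0.121. These means pool the 3 genes of chromosome 16 (promoter log2 change -0.99 to -0.67) with 3 that changed less (-0.27 to 0.03). At the 6 marked DOWN the share of H3K4me3 counts within 400 bp of the start went from 39.8% and 42.9% to 49.6% and 50.9%. At the 12 marked UP it went from 35.7% and 35.5% to 40.1% and 40.8%. At the other autosomal genes it went from 36.2% and 37.8% to 42.2% and 42.8%, in the same direction. H2AK119ub1, averaged over the 18, was low at the start, at 0.307 and 0.411 CPM per bin in WT and 0.545 and 0.642 in cKO, against 1.14 and 1.09, then 1.01 and 1.01, at the other autosomal genes.

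**Figure D5:**
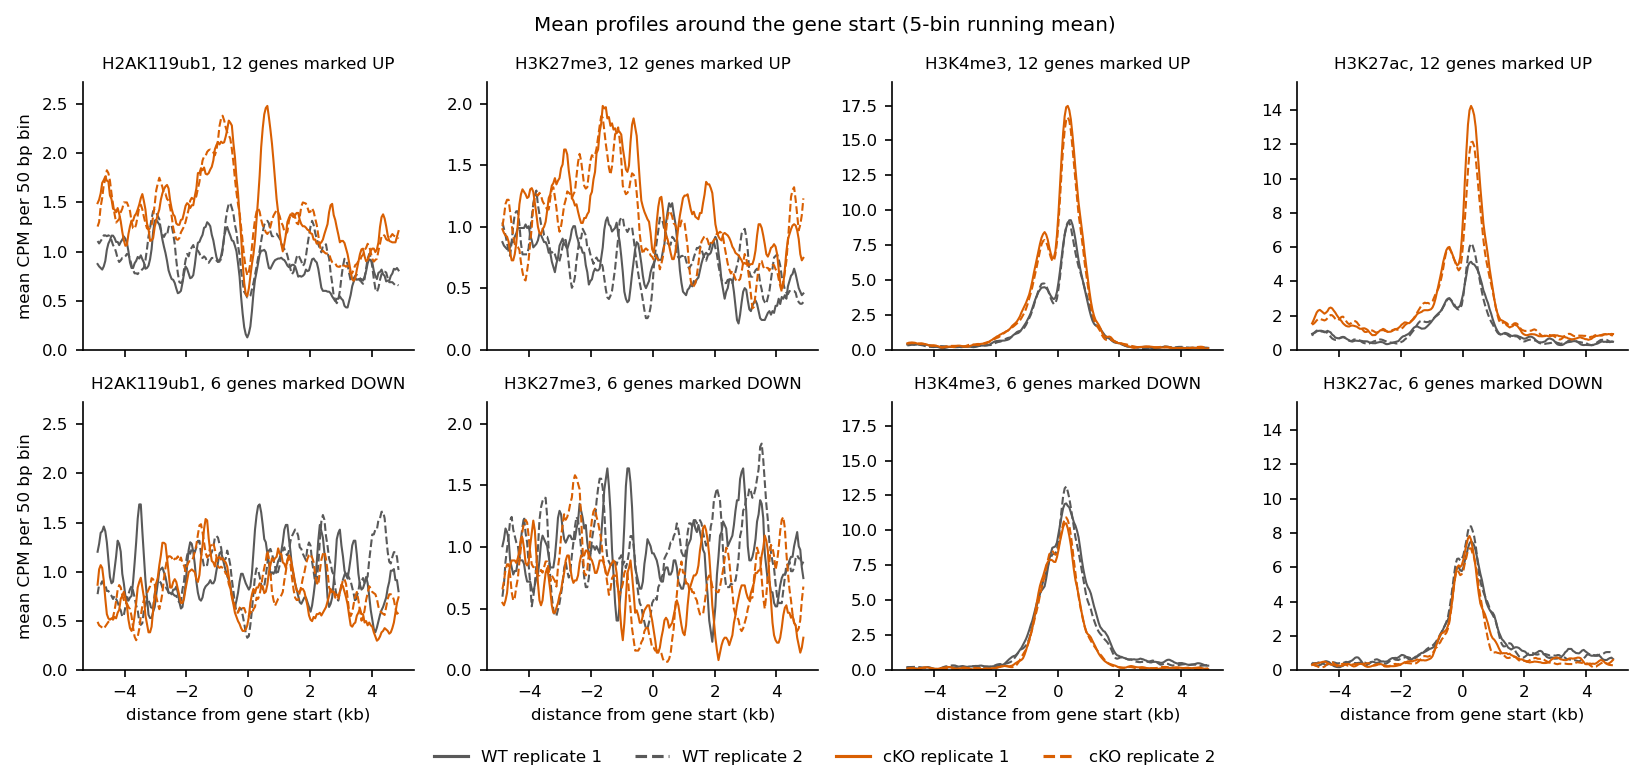
Mean CPM per 50 bp bin (vertical axis, running mean over 5 bins) against distance from the gene start in kb (negative upstream), for the 12 genes marked UP (upper row) and the 6 marked DOWN (lower row), with grey lines for WT and orange lines for cKO, solid for replicate 1 and dashed for replicate 2. Both rows of a mark share a scale: the cKO peaks of H3K4me3 and H3K27ac stand above the WT peaks in the upper row, and in the lower row the H3K4me3 curves differ by less, mostly beyond the start.

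The position of the peak differed among the genes. Mrpl23 and Mrpl38 held 93.4% and 92.5% of their WT H3K4me3 promoter counts downstream of the start, and Uqcrh and Ndufaf2 34.3% and 43.7%. Of the 18 genes 7 have a neighbour that starts within 200 bp on the other strand. Besides Uqcrh (Lrrc41) and Ndufaf2 (Ercc8) these are Ndufaf5 (Esf1), Atp5h (Kctd2), Ndufaf8 (Tepsin), Mrpl50 (Zfp189) and Ndufaf4 (Gm46848), with 47.6%, 49.3%, 54.3%, 55.3% and 64.4% downstream. The signal of either promoter cannot be told apart within such a window.

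Few other genes of mitochondria and ribosomes were among those measured. Over all promoters 40.5% rose in H3K4me3, 30.9% in H3K27ac and 16.7% in H2AK119ub1. Apart from Cycs, the genes measured in the lists of this paragraph are all marked UP. Of 45 genes of mitochondrial translation and RNA 4 were measured, the aminoacyl-tRNA synthetase genes Fars2, Pars2 and Rars2 and the polymerase subunit gene Polg2, and all 4 rose in H3K4me3 (0.30 to 0.94) and H3K27ac (0.51 to 1.08). Pars2 and Rars2 lie on chromosome 4 and Polg2 on 11. With the regional offset 3 stayed higher in H3K4me3 and all 4 in H3K27ac. Of 41 genes of respiratory chain assembly and carriers 5 were measured, of which 4 rose in both active marks. Those 4 (Atpaf1, Coa3, Dmac1 and Dmac2) lie on chromosomes 4, 7 and 11. With the offset 5 of this list were higher in H3K4me3 and 1 in H3K27ac. The assembly factor gene Coa3 went from 76.4 ± 2.43 to 376 ± 26.2 H3K4me3 CPM (mean ± SD, n = 2; log2 2.298 ± 0.11, and 1.78 relative to its neighbourhood). Its H3K27ac gain (0.81 ± 0.16) was not called with the offset (0.29). Cycs, the cytochrome c gene on chromosome 6, fell in H3K27ac (-0.56 ± 0.16) and did not pass in H3K4me3 (-0.12 ± 0.09), and with the offset it was called higher in H3K4me3 (0.19) and not called in H3K27ac (-0.25). Of 60 ribosome biogenesis genes 4 were measured, and Ftsj3, Mdn1, Nol6 and Polr1e, a subunit of RNA polymerase I, all rose in H3K4me3 (0.51 to 0.78) and in H2AK119ub1 (0.64 to 0.95), and all but Polr1e (0.10) in H3K27ac. These 4 genes also lie on chromosomes 4 and 11. With the regional offset Nol6 (0.30) and Ftsj3 (0.31) stayed higher in H3K4me3, Mdn1 (0.16) did not pass, Polr1e was called lower in H3K4me3 (-0.30) and H3K27ac (-0.70), and no H2AK119ub1 call remained.

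Of 26 genes of the TCA cycle and pyruvate use 3 were measured. Pdk2, a kinase that inhibits pyruvate dehydrogenase, rose by 1.67 ± 0.10 in H3K4me3 and 1.176 ± 0.20 in H3K27ac. It lies on chromosome 11 and is marked UP. With the regional offset Pdk2 stayed higher in both (1.13 and 0.63) and was called lower in H2AK119ub1 (-0.60). Pdk1 (0.07 and 0.19) did not pass, and Mpc2, a pyruvate carrier subunit, passed in H3K27ac (0.42 ± 0.14). Oma1, a protease of the inner mitochondrial membrane, was the 1 measured of 28 genes of import and protein quality. It lies on chromosome 4, is marked UP and rose in all 4 marks. With the regional offset none of these calls remained (0.23 in H3K4me3 and 0.39 in H3K27ac). Among 8 measured of 30 regulators, H3K4me3 rose at 4 and fell at 2, beside 40.5% and 31.8% of all promoters. H2AK119ub1 rose at 3 of the 8 and fell at 1, beside 16.7% and 16.4% of all promoters. Rptor, the raptor subunit of mTORC1, rose by 0.96 ± 0.08 in H3K4me3 and by 1.33 ± 0.23 in H2AK119ub1. It lies on chromosome 11, is marked UP and stayed higher in both with the offset (0.53 and 0.80). Ppargc1b on chromosome 18 fell in H2AK119ub1 (-0.97 ± 0.20) and H3K27me3 (-1.49 ± 0.28). It rose in H3K4me3 (0.55 ± 0.08) and H3K27ac (1.12 ± 0.18), and all these calls stayed with the offset. Eif4ebp1, a translation repressor under mTORC1, fell in H3K4me3 (-0.68 ± 0.08) and H3K27ac (-0.75 ± 0.15) and rose in H2AK119ub1 (0.67 ± 0.21). These calls stayed with the offset (-0.28, -0.35 and 1.08). Myc, at 770.5 ± 50.6 H3K4me3 CPM in WT, did not pass in either active mark (-0.06 and -0.13). With the offset Myc was called higher in both (0.43 and 0.36).

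The stromal markers went the other way from most of the 18. Of 14 looked for 10 were measured, of which 9 fell in H3K4me3 (median -1.17) and 8 in H3K27ac (median -1.05), and the same counts fell relative to the neighbourhood. Over all promoters 31.8% fell in H3K4me3 and 29.1% in H3K27ac. All 10 carry the authors' mark DOWN, and of all promoters so marked 58.2% and 53.1% fell. Among the other markers looked for, 1 of 10 of blood (Lyz2) and 1 of 5 of muscle (Des) were measured, and neither passed in either active mark. None of 5 endothelial markers was measured. The part of cell composition in the changes above was not tested.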

How the data were processed

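ChIP-seq of 4 histone marks in WT and cKO endosteal MSCs gave 16 libraries, 2 per mark and genotype. The authors deposited whole-number read counts for 3925 genes, each covered by 200 bins of 50 bp (785000 bins) around its start, per the file headers. The genome build was GRCm38, and the aligner Bowtie2 2.4.5 is listed, per the submitters' processing notes, beside bedtools 2.30.0, SAMtools 1.9, Picard 2.25.5 and cutadapt 1.18, with roles and settings not given. A read fills about 3 neighbouring bins, so counts exceed reads, and a counting error taken from the counts alone would be understated. The fit takes its spread from the libraries. With 1 bin in 3 it called 9 genes higher and 2 lower in H2AK119ub1, against 8 and 2 with all bins. The counts in H3K27me3 (4 and 1), H3K4me3 (12 and 5) and H3K27ac (12 and 3) stayed the same. Input libraries were not used here. Library totals ran from 1283020 (H3K27me3) to 10101047 (H3K4me3), and the promoter counts of the 18 genes from 27 to 7694, so the Polycomb marks are measured least precisely.

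The file names genes by ID alone, and symbols were taken by position from RefSeq GRCm38.p6 starts within 500 bp (3334 genes, 84.9%, against 115 when positions were shifted by 20 kb). Bins 61 to 140 (4 kb) were summed. Each mark was fitted with edgeR 4.0.16 (R 4.3.3, limma 3.58.1; robust quasi-likelihood test, filterByExpr with a minimum count of 10, TMM factors from autosomal windows), over all promoters and with Benjamini-Hochberg adjustment at 0.05. Errors after ± are standard errors of the log2 change unless called SD. CPM use the TMM-scaled autosomal totals. The regional offset uses H3K27me3 flanks for H2AK119ub1, H2AK119ub1 flanks for H3K27me3 and the mean of both for the active marks. The fit was also run on counts simulated at the level of 1 bin in 3, with a common spread for all genes and no regional change. That setting differs from the data, so error rates in these data were not tested. Alternatives were other scalings, DESeq2 1.42.0, no filter, other widths, 1 bin in 3, the offset, a replicate block, leaving out shared windows and leaving out each library. Tables and plots used Python 3.11.15, numpy 2.4.6, pandas 2.3.3 and matplotlib 3.10.9.

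The genes and lists were chosen with earlier results of these data known. Genes were named by rule: per mark up to 6 called genes of lowest p in each direction, genes called in 3 or more marks, and the highest and lowest WT H3K4me3 of each family. The rule named 16 of the 18, and Ndufaf2 and Mrpl50 were added after their values were seen. Counts and medians cover all 18, but 1 gene is not reported here by name.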

Additional observations from a re-analysis of the deposited data

How the results depend on the processing

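H3K4me3 and H3K27ac were called higher at 12 genes in each fit that left out 1 library, and the calls named for H2AK119ub1 and H3K27me3 depended most on the processing. Over the 16 genes named by rule, 795 combinations of gene, mark and alternative kept the direction and side of the threshold. A further 80 lost the call, 12 gained one and 9 reversed. The 795 include genes that had no call in a mark and stayed without one, and alternatives close to the main fit. In H2AK119ub1 the regional offset left 5 of the 16 genes unchanged in this sense. With the regional offset the log2 change turned to 1.00 (Rpl24) and 0.27 (Tomm70a) in H2AK119ub1, to 0.0165 (Ndufa4) and 0.31 (Tomm70a) in H3K4me3, and to 0.32 (Rpl24), 0.22 (Mrps6) and 0.35 (Tomm70a) in H3K27ac. Scaled to the outer flanks, H3K4me3 turned to 0.20 at Ndufa4 and 0.13 at Ndufaf5. The cause was not tested.

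Counts of called genes moved by more than 1.5 times as follows. With the regional offset H2AK119ub1 was higher at 1 gene and lower at 0, H3K27me3 higher at 2, H3K4me3 lower at 1 and H3K27ac lower at 0 (edgeR, 0 lower at an unadjusted p under 0.05 in both cases of 0). With the promoter cut to 1 kb to each side H2AK119ub1 was higher at 3 and lower at 0 (2 at an unadjusted p under 0.05), H3K27me3 higher at 1 and lower at 2, and H3K4me3 lower at 3. With 5 kb to each side H3K27me3 was lower at 4. Scaled to the outer flanks, H2AK119ub1 was lower at 1 and H3K4me3 lower at 2. DESeq2 called H3K27me3 higher at 2, and without shared windows H2AK119ub1 was lower at 1.

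Without 1 library at a time, H2AK119ub1 was higher at 0 to 7 genes and lower at 0 to 1 by edgeR, with 0 and 0 without cKO replicate 1 (5 and 2 at an unadjusted p under 0.05), 2 and 0 without cKO replicate 2 (8 and 0) and 6 and 0 without WT replicate 1 (6 and 1). H3K27me3 was higher at 2 to 3 and lower at 0 to 1, the 0 coming without WT replicate 2 or cKO replicate 2 (2 and 1 at an unadjusted p under 0.05) and the 2 without WT replicate 1 or cKO replicate 1. H3K4me3 was lower at 3 to 5, with 3 without cKO replicate 2, and H3K27ac lower at 1 to 3, with 1 without either WT library and 2 without cKO replicate 1. A group left with 1 library was assumed to vary like the other. With the replicate block the counts higher and lower were 8 and 2, 3 and 1, 12 and 5, and 12 and 3 in the order H2AK119ub1, H3K27me3, H3K4me3 and H3K27ac. Libraries with the same number did not visibly deviate together (r between -0.04 and 0.07). Whether they share a source cannot be told from this.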
